A study of Mus musculus with 26 samples.

Results

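The circadian clock genes described here are 10 transcripts read in mouse liver: Arntl (the gene of BMAL1), Clock, Per1, Per2, Per3, Cry1, Nr1d1, Nr1d2, Dbp and Tef. They were chosen by name, as the rows of a gene-level table of estimated RNA-seq counts whose Ensembl IDs carry these symbols. Each of the 10 matched 1 of the 55642 rows of the table, and all 10 were among the 17104 genes that passed the filter on low counts.

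In the clock, BMAL1 pairs with CLOCK and switches on genes that carry E-box sequences, among them the Per and Cry genes, Nr1d1 and Dbp. PER and CRY proteins then return to the nucleus and block BMAL1 and CLOCK, while the REV-ERB receptors made from Nr1d1 and Nr1d2 repress Arntl through RORE sequences, and DBP and TEF drive genes that carry D-boxes. In mouse liver these transcripts cycle over the day, with Arntl and Clock near their highest when Nr1d1, Dbp and Tef are near their lowest, so that the level of 1 gene in a liver depends on the hour at which it was taken. The sources used here do not give the time of day at which these livers were collected.

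The study read total RNA from 26 liver samples in 4 groups. Homozygous knockouts of Mtarc1 on CDAHFD, a choline-deficient high-fat diet with defined amino acids that causes steatohepatitis, gave 8 libraries (Hom KO CDAHFD). Heterozygous Mtarc1 knockouts on CDAHFD gave 7 (Het KO CDAHFD), wildtype mice on CDAHFD gave 6 (WT CDAHFD) and wildtype mice on control chow gave 5 (WT chow). CDAHFD was fed for 2 weeks, and no knockout group on chow is among these samples. Mtarc1 encodes an amidoxime reducing enzyme of the outer mitochondrial membrane. The sources used here do not say how the knockout was made, in which strain or at which age. Library numbers fall into 2 series, 1 of 9 libraries and 1 of 17, which the labels do not call batches. The 9-library series held 2 Hom KO, 3 Het KO, 3 WT CDAHFD libraries and 1 WT chow library, and the 17-library series held 6, 4, 3 and 4 in the same order of groups.

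Total estimated counts lay between 19.7 and 29.9 M per library. Mtarc1 averaged 48.7 ± 10.4 CPM in Hom KO CDAHFD livers (SD, n = 8), 161 ± 33.7 CPM in Het KO CDAHFD livers (n = 7), 235 ± 40.7 CPM in WT CDAHFD livers (n = 6) and 305 ± 40.2 CPM in WT chow livers (n = 5), and every Hom KO library lay below every other library. CPM is the count per mega count of library size, scaled by TMM. All 8 hepatocyte markers fixed for this work were read. Their summed level was 67917 to 100637 CPM in Hom KO, 59676 to 90206 CPM in Het KO, 59776 to 94159 CPM in WT CDAHFD and 91711 to 119276 CPM in WT chow livers. The summed level of 8 macrophage markers was 252 to 392 CPM in Hom KO, 354 to 518 CPM in Het KO, 326 to 655 CPM in WT CDAHFD and 158 to 295 CPM in WT chow livers. That of 8 stellate cell and matrix markers was 342 to 516, 426 to 594, 470 to 953 and 241 to 334 CPM in the same order of groups. In WT CDAHFD against WT chow, 8 of 8 macrophage and 5 of 8 stellate and matrix markers were called higher and 4 of 8 hepatocyte markers lower, and 1 of 7 lymphocyte, 2 of 3 neutrophil, 0 of 6 endothelial and 0 of 4 bile duct markers higher. The part of these shifts in the clock results was not tested, and in whole liver fewer cells of a type and less RNA per cell cannot be told apart.

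The kinds of site that clock proteins bind were looked for in the members' promoters, taken from RefSeq on GRCm38.p6 as windows of 250 bases before and 50 after a start site (14 windows for 9 of the members, all but Per2). The promoter of Per3 is shown because Per3 moved most closely with Dbp and Tef, whose proteins bind D-boxes. It was the only member promoter with a D-box match, and it held a pair of them. The 250 bases before its start site (chr4:151044666-151044915, minus strand) follow, with the D-boxes in capitals.
Per3: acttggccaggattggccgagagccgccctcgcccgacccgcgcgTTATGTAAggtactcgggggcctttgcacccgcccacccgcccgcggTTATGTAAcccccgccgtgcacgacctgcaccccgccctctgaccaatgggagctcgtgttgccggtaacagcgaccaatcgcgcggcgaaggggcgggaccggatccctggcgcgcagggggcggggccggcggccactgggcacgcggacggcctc
Single sites of 30 bases are shown for members with a perfect E-box (CACGTG, its own reverse complement) and for the RORE (TAGGTCA) of Arntl, through which REV-ERB is known to act. The capitals mark the motif.
Per1 E-box, chr11:69098771-69098800, plus strand: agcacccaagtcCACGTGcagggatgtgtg
Cry1 E-box, chr10:85185097-85185126, minus strand: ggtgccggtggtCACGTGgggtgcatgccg
Tef E-box, chr15:81802534-81802563, plus strand: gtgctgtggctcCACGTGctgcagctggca
Arntl RORE, chr7:113207530-113207559, plus strand, in the transcribed bases just after the start site: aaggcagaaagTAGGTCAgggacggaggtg
The E-box was found in 4 of the 14 member windows and in 7.15% of all 32851 windows. These 4 belong to 3 of the 9 genes, Per1, Cry1 and Tef, the last with both of its windows. The D-box (TTATGTAA, TTACATAA on the other strand, or TTACGTAA) was found in 1 of the 14 member windows, that of Per3, and in 1.06% of all windows. The RORE (TAGGTCA or TGACCTA) was found in 1 of the 14, 1 of 2 windows of Arntl, and in 2.61% of all windows. A match is a string of letters in the window, and none of these data bear on binding.

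The activators were lower on CDAHFD than on chow in wildtype livers. Arntl averaged 4.21 ± 1.22 CPM in WT CDAHFD livers (SD, n = 6) and 13.1 ± 5.11 CPM in WT chow livers (n = 5), and Clock averaged 25.5 ± 3.77 and 41.7 ± 5.44 CPM in the same order of groups. The repressor Cry1 was lower as well, at 5.21 ± 2.06 CPM in WT CDAHFD and 9.17 ± 2.01 CPM in WT chow livers. These 3 of the 10 members were called at an adjusted p under 0.05 by edgeR's quasi-likelihood test, all 3 lower, and none was called higher. Of all 17104 genes tested, 27.1% were called in this comparison, 12.2% lower and 14.8% higher, so the share of members called was near the background.

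Arntl had 2.77 to 6.12 CPM in the 6 WT CDAHFD livers, with a median of 4.26 CPM, against 4.56, 15.6, 12.8, 17.9 and 14.6 CPM in WT chow replicates 1 to 5. Replicate 1 was the one chow liver within the range of the CDAHFD livers, and the other 4 lay above all of them. Arntl fell by 1.63 on the log2 scale (SE 0.52, adjusted p = 0.0206, edgeR), to 32.3% of its chow level, and all 6 CDAHFD livers lay below the chow mean. Of the WT CDAHFD livers 3 of 6 belong to the 17-library number series, against 4 of 5 WT chow livers, and with the series as a term in the fit Arntl was no longer called (-1.19, adjusted p = 0.0935, edgeR). Clock had 19.3 to 31.0 CPM in WT CDAHFD livers, with a median of 25.3 CPM, against 34.6, 48.0, 37.8, 45.3 and 42.7 CPM in WT chow replicates 1 to 5. The groups did not overlap for Clock, with CDAHFD lower, which held for 5.93% of all genes tested. For no member did all CDAHFD livers lie above all chow livers, which held for 7.95% of all genes. Clock fell by 0.71 (SE 0.15, adjusted p = 0.00083, edgeR).

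Among the repressors, Cry1 had 3.04 to 8.13 CPM in WT CDAHFD livers, with a median of 4.33 CPM, against 7.23, 10.9, 11.2, 9.65 and 6.92 CPM in WT chow replicates 1 to 5. The groups overlapped, with 4 of 6 CDAHFD livers below every chow liver. Cry1 fell by 0.82 (SE 0.24, adjusted p = 0.0119, edgeR). The Per genes, whose proteins act with CRY, had values above chow that did not pass the test. Per1 averaged 40.0 ± 23.6 CPM in WT CDAHFD and 16.8 ± 9.59 CPM in WT chow livers, a log2 difference of 1.25 (SE 0.55, adjusted p = 0.0928, edgeR). Per2 averaged 43.1 ± 22.6 and 22.2 ± 5.93 CPM in the same order, a log2 difference of 0.96 (SE 0.40, adjusted p = 0.0771, edgeR). For Per2, 5 of 6 CDAHFD livers lay above every chow liver. Per3 had 21.2 to 62.8 CPM in WT CDAHFD livers, with a median of 32.9 CPM, against 36.3, 8.82, 16.4, 7.49 and 11.2 CPM in WT chow replicates 1 to 5. Its log2 difference was 1.19 (SE 0.58, adjusted p = 0.134, edgeR), and only chow replicate 1 lay inside the CDAHFD range.

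Neither REV-ERB gene passed the test between the diets. Nr1d1 averaged 134 ± 26.6 CPM in WT CDAHFD and 119 ± 65.0 CPM in WT chow livers, with a log2 difference of 0.17 (95% interval -0.35 to 0.69, adjusted p = 0.655, edgeR). Its chow livers spread more widely, from 45.6 to 208 CPM, than its CDAHFD livers, from 104 to 167 CPM. Nr1d2 averaged 81.9 ± 11.6 and 56.8 ± 24.5 CPM in the same order of groups, a log2 difference of 0.53 (SE 0.24, adjusted p = 0.099, edgeR). In GENCODE M21, 8.55% of the exonic bases of Nr1d1 are shared with Thra on the opposite strand and 18% of those of Dbp with Sphk2, and no source used here says whether strand was used in counting, so some reads of these genes could come from the partner. For Tef and Arntl the shared part was 2.45% and 0.439%, with antisense genes.

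Neither D-box activator, Dbp or Tef, passed the test, and Dbp had the widest spread of the members among chow livers. Dbp had 90.0 to 234 CPM in WT CDAHFD livers, with a median of 140 CPM, against 163, 9.79, 46.8, 4.97 and 11.6 CPM in WT chow replicates 1 to 5. Again chow replicate 1 lay within the range of the CDAHFD livers, and the other 4 lay below all of them. The log2 difference of Dbp was 1.64 (SE 0.79, adjusted p = 0.134, edgeR). Tef had 110 to 225 CPM in WT CDAHFD livers, with a median of 146 CPM, against 194, 74.7, 107, 53.0 and 76.7 CPM in WT chow replicates 1 to 5, a log2 difference of 0.62 (SE 0.39, adjusted p = 0.252, edgeR). Over all 10 members the median log2 difference was 0.57, with 7 above 0 and 3 below, beside -0.01 over all genes tested.

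WT chow replicate 1 decided much of this count. Without it 6 members were called, Arntl, Clock and Cry1 lower and Per3, Nr1d2 and Dbp higher, with log2 differences of 1.74 for Per3 (adjusted p = 0.0382), 0.80 for Nr1d2 (adjusted p = 0.011) and 3.01 for Dbp (adjusted p = 0.0081, all edgeR). Without WT chow replicate 4 the count was 2, since Arntl then had an adjusted p of 0.0522 (edgeR). Over the fits that each left out 1 library, 3769 to 4735 of all genes were called for diet, beside 4630 with all libraries. Clock was called under every one of 37 settings run, Cry1 under 35 and Arntl under 34. With library totals in place of TMM the median of all genes moved up by 0.23 and 88.4% of 6072 calls were higher, beside 54.8% of 4630 calls with TMM. Under that scaling Arntl and Clock were still called lower, Per1, Per2 and Nr1d2 were called higher, and Cry1 had a log2 difference of -0.60 (adjusted p = 0.0565, edgeR).

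**Figure D1:**
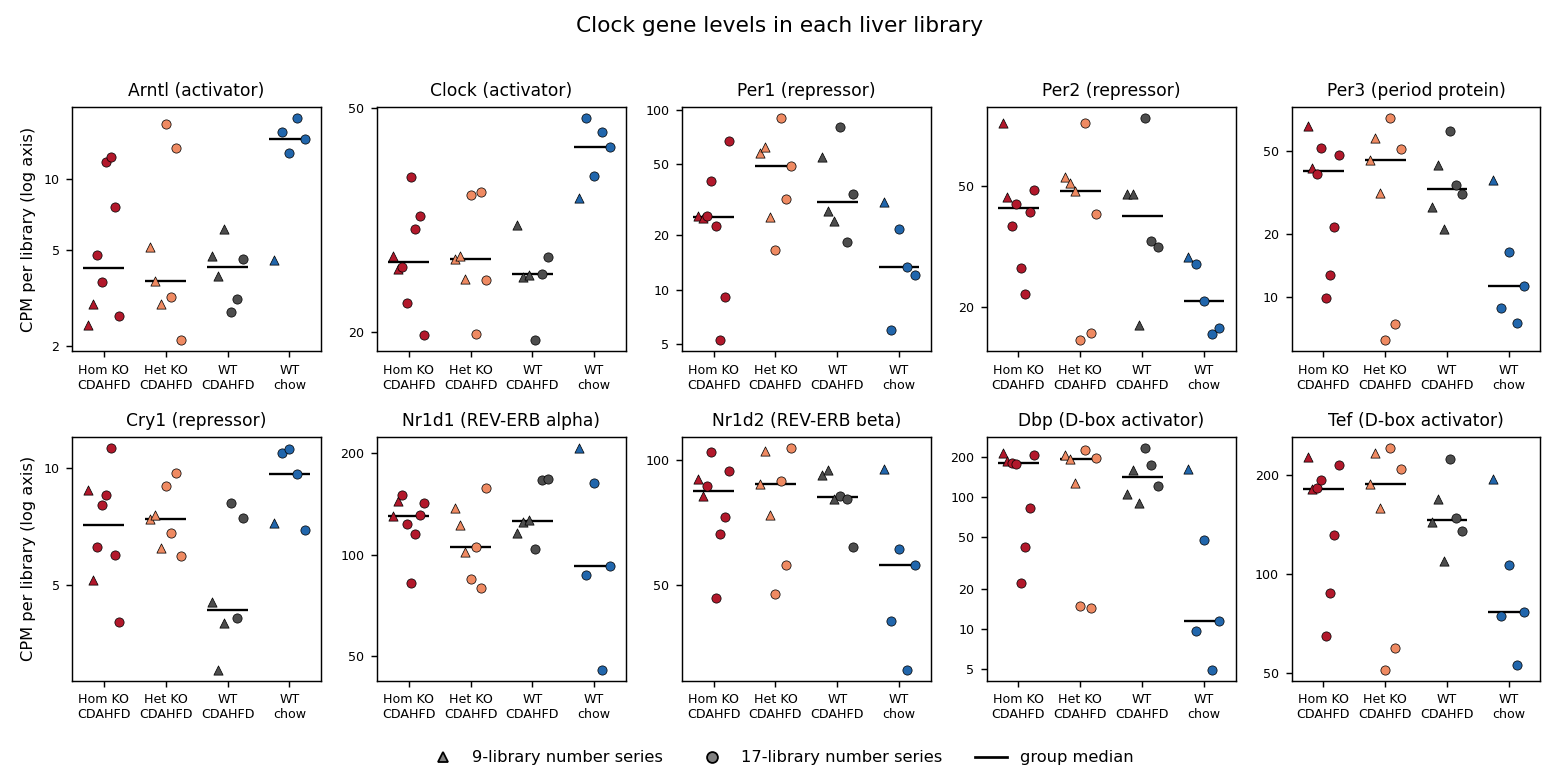
Levels of the 10 clock genes in CPM on a log axis, 1 point per library, with Hom KO CDAHFD, Het KO CDAHFD, WT CDAHFD and WT chow livers from left to right; triangles are the 9-library number series, circles the 17-library series, and bars are group medians. Arntl is over 10 CPM in 4 of 5 chow, 2 of 7 Het KO and 2 of 8 Hom KO livers and in none of the 6 WT CDAHFD livers, and Dbp is low in those same livers.

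No clock gene passed the test in the knockout comparisons. In Hom KO CDAHFD against WT CDAHFD livers 0 of 10 members were called by edgeR, and 1 of 17104 genes (0.00585%) was called in all, Mtarc1 itself, with a log2 difference of -2.27 (SE 0.15). In Het KO CDAHFD against WT CDAHFD livers 0 of 10 members and 0 genes (0%) were called, and in Hom KO against Het KO livers 0 members and again only Mtarc1 (0.00585%). At an unadjusted p under 0.05 edgeR had 1705, 1444 and 1219 of 17104 genes in the 3 comparisons. Among them were 1, 1 and 0 of the 10 members, so the share of members was near or below that of all genes. DESeq2 called 42, 3 and 12 genes with no member among them.

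The member below that unadjusted threshold was Cry1 in both knockout comparisons. It had 4.02 to 11.2 CPM in Hom KO livers, with a median of 7.13 CPM, 5.95 to 9.67 CPM in Het KO livers, with a median of 7.40 CPM, and 3.04 to 8.13 CPM in WT CDAHFD livers. The groups overlapped, though all 7 Het KO livers lay above the WT CDAHFD mean. The log2 differences were 0.48 for Hom KO (SE 0.22, adjusted p = 0.446, edgeR) and 0.53 for Het KO (SE 0.22, adjusted p = 0.569, edgeR). Both comparisons share the WT CDAHFD livers.

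For the other members the intervals were wide. Arntl averaged 6.03 ± 4.05 CPM in Hom KO, 6.78 ± 5.88 CPM in Het KO and 4.21 ± 1.22 CPM in WT CDAHFD livers, with log2 differences to WT CDAHFD of 0.52 (95% interval -0.45 to 1.49) and 0.69 (95% interval -0.30 to 1.68) for Hom KO and Het KO. The livers over 10 CPM were 2 in each knockout group (11.7 and 12.4 CPM in Hom KO, 16.9 and 13.4 CPM in Het KO), while the medians of 4.24, 3.73 and 4.26 CPM in Hom KO, Het KO and WT CDAHFD livers lay close together. Dbp had 22.3 to 212 CPM in Hom KO livers, 14.6 to 223 CPM in Het KO livers and 90.0 to 234 CPM in WT CDAHFD livers. Its log2 difference was -0.08 for both knockouts, and the interval for Hom KO ran over -1.48 to 1.31, so differences of Dbp within it could not be told from 0 in these livers. Per1 averaged 27.5 ± 19.4 CPM in Hom KO, 47.5 ± 25.2 CPM in Het KO and 40.0 ± 23.6 CPM in WT CDAHFD livers, and Hom KO against Het KO gave a log2 difference of -0.79 (SE 0.45, adjusted p = 0.716, edgeR).

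**Figure D2:**
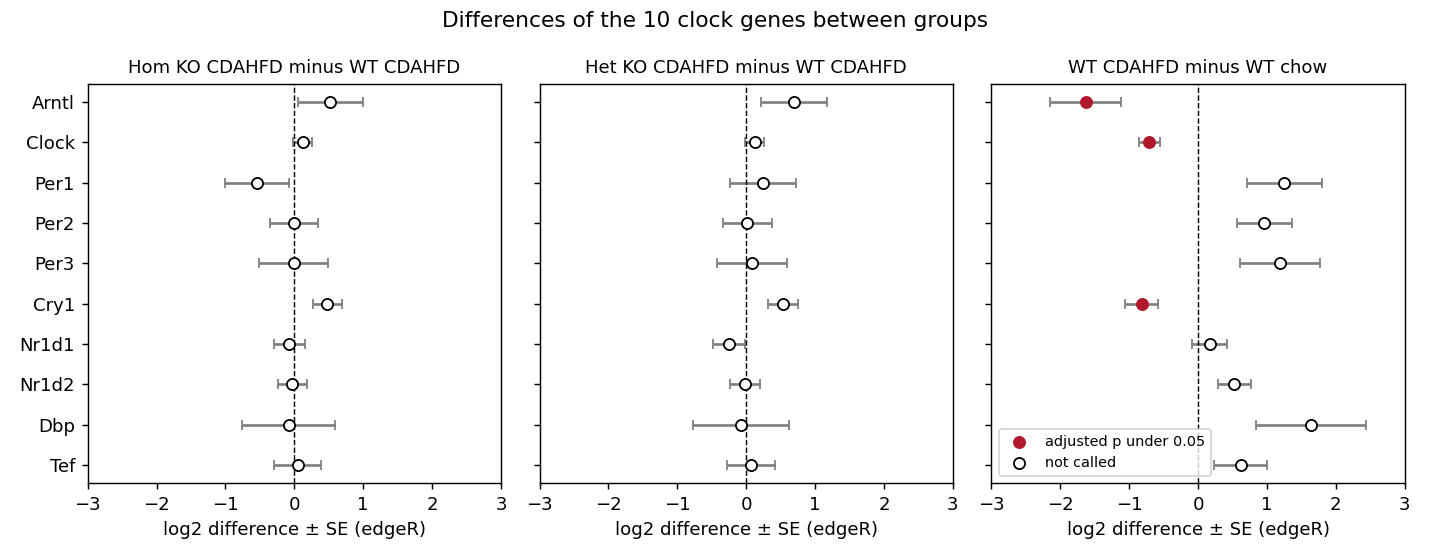
Log2 differences with standard errors (edgeR) of the 10 clock genes in Hom KO CDAHFD minus WT CDAHFD (left), Het KO CDAHFD minus WT CDAHFD (middle) and WT CDAHFD minus WT chow (right); filled points have an adjusted p under 0.05. Only Arntl, Clock and Cry1 are called, in the diet comparison, with the widest error bars on Dbp.

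Apart from Clock, the members varied among livers of 1 group more than most genes. The SD of log2 CPM within groups was 1.47 for Dbp, above that of 99.4% of the genes tested, 1.05 for Per3 (above 98.6%), 0.95 for Per1 (above 98.0%) and 0.88 for Arntl (above 97.5%). Tef and Per2 lay above 93.8% and 93.1% of genes. Clock, with an SD of 0.26, lay above 45.1%, near the median gene (0.29). From the lowest to the highest liver Dbp spanned 47.0-fold, Per1 17.2-fold, Per3 11.6-fold and Clock 2.48-fold.

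Livers with high Arntl were those with low Dbp, Tef and Per3. Arntl was over 10 CPM in 8 livers, at 11.7 to 17.9 CPM, and at 2.11 to 7.62 CPM in the other 18. The same 8 livers held the 8 lowest values of Dbp, 4.97 to 46.8 CPM against 82.7 to 234 CPM in the other 18, and of Tef, 51.3 to 107 CPM against 110 to 243 CPM. They also held the 8 lowest of Per3, 6.19 to 16.4 CPM against 21.2 to 72.1 CPM. For Clock, Per1, Per2, Cry1, Nr1d1 and Nr1d2 the ranges of the 8 and the 18 livers overlapped. These livers were picked out by Arntl itself, so the ranges describe the data and were not tested. Of the 8 livers, 2 of 8 were Hom KO CDAHFD, 2 of 7 Het KO CDAHFD, 0 of 6 WT CDAHFD and 4 of 5 WT chow, and all 8 were among the 17 livers of the larger number series.

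The difference between Arntl and Dbp within a liver places each liver on 1 scale. In log2 CPM, Arntl minus Dbp was -6.39 to -0.93 in Hom KO livers, with a median of -5.38, -6.48 to 0.18 in Het KO livers, with a median of -5.38, and -6.36 to -3.86 in WT CDAHFD livers, with a median of -5.00. In WT chow replicates 1 to 5 it was -5.13, 0.67, -1.87, 1.83 and 0.34, so 4 chow livers lay above every WT CDAHFD liver. Hom KO replicate 7, at -3.43, stood between the livers with high and low Arntl, with 7.62 CPM of Arntl and 82.7 CPM of Dbp. Arntl minus Nr1d1 was -5.70 to -2.81 in Hom KO, -6.18 to -2.32 in Het KO, -5.70 to -4.36 in WT CDAHFD and -5.48 to -1.35 in WT chow livers. Per2 minus Dbp was -2.28 to 0.26, -2.27 to 0.17, -2.38 to -1.16 and -2.48 to 1.69 in the same order of groups, and Cry1 minus Nr1d1 was -5.11 to -3.26, -4.71 to -3.03, -5.33 to -3.66 and -4.83 to -2.23. CPM carry no correction for transcript length, so these differences compare livers and not the levels of 1 gene and another.

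**Figure D3:**
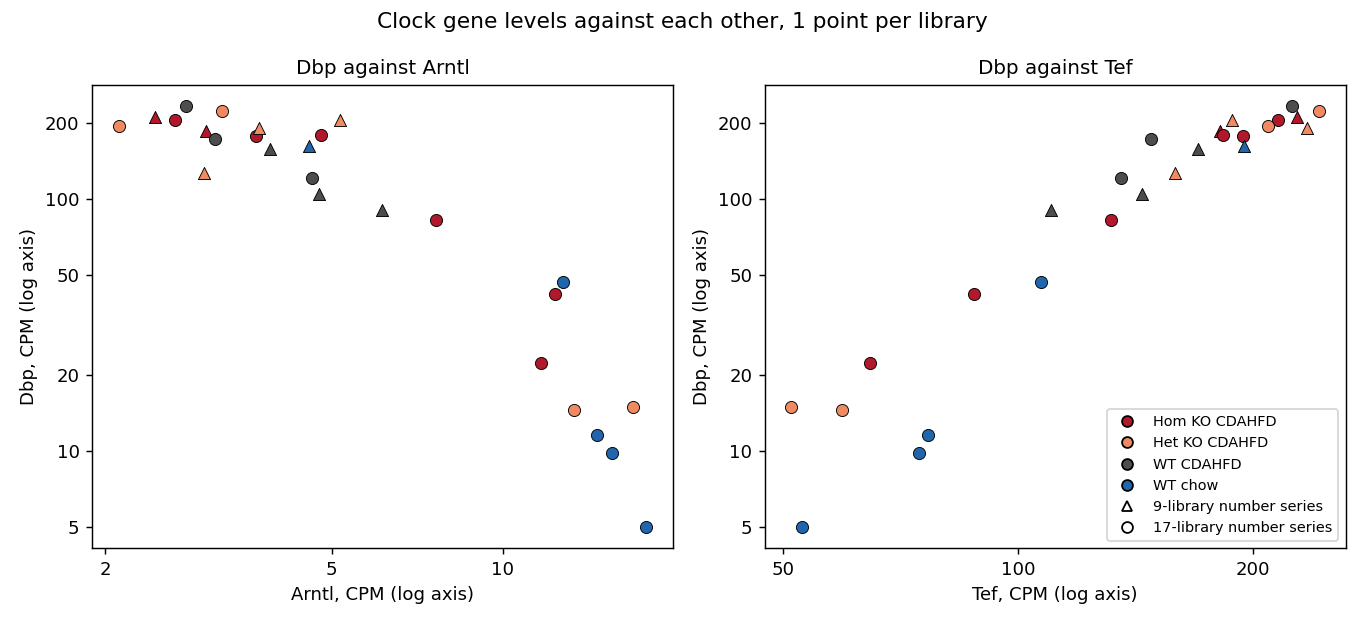
Dbp against Arntl (left) and Dbp against Tef (right) in CPM on log axes, 1 point per library, coloured by group, with triangles for the 9-library and circles for the 17-library number series. Dbp is lower in livers where Arntl is higher, the chow liver among the 9-library series sits with the CDAHFD livers, and Dbp and Tef are high in the same livers.

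Correlations between members were taken over the 26 livers after each group's mean was removed from log2 CPM, so that they do not rest on the group differences. Of the 45 pairs, 37 had an adjusted p under 0.05 in a permutation within groups (100000 resamples, two-sided), 21 positive and 16 negative, and 36 by Spearman's rho. All 28 pairs that hold neither Cry1 nor Nr1d1 were among the 37. Since Arntl leaves a gap between 7.62 and 11.7 CPM, r was also taken within the 18 livers below the gap and the 8 above it. That choice was made after the values were seen. Every r below or above the gap is uncentred: group means were not removed, so it can carry group differences, and it was not tested. The split was on Arntl itself, so each side covers a narrower range of Arntl, and r there can be weaker for that.

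Over the 26 livers Arntl ran against Dbp, Tef, Per3, Nr1d2, Per2 and Per1, and with Clock. For Arntl and Dbp r was -0.90 (rho -0.84, adjusted permutation p = 3.21e-05 and 4.09e-05), and -0.85 without the 2 livers farthest in Arntl. Below and above the gap it was -0.72 and -0.80. For Arntl and Tef r was -0.93 and for Arntl and Per3 -0.93, with rho of -0.90 for each and the same adjusted permutation p of 3.21e-05, and within the sides of the gap both lay between -0.71 and -0.59. The permutation p of these pairs, 1e-05 before adjustment, is the smallest that the resamples can give. Arntl and Clock had an r of 0.79 (rho 0.82, adjusted permutation p = 4.74e-05 and 4.09e-05), 0.56 below the gap and 0.55 above it. With Nr1d2, Per2 and Per1 Arntl had r of -0.79, -0.78 and -0.63 (rho -0.75, -0.72 and -0.63, highest adjusted permutation p 0.00234). Below and above the gap r was -0.35 and -0.71 for Nr1d2, -0.51 and -0.52 for Per2, and -0.42 and -0.17 for Per1.

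With Nr1d1 and Cry1 the uncentred r of Arntl took the other sign on at least 1 side of the gap. Arntl and Nr1d1 had an r of -0.59 (rho -0.58, adjusted permutation p = 0.00102 and 0.00393). Uncentred, r was 0.10 among the 18 livers below the gap and -0.62 among the 8 above, so no inverse relation was seen below it. Arntl and Cry1 had an r of 0.43 (rho 0.42, adjusted permutation p = 0.0216 and 0.041), and 0.37 without the 2 livers farthest in Arntl. Uncentred, r was -0.10 below the gap and -0.13 above it, so no positive relation was seen on either side. Cry1 is known to peak later than the other E-box genes of the clock.

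Dbp, Tef and Per3 moved together. Dbp and Tef had an r of 0.97 (rho 0.95, adjusted permutation p = 3.21e-05 and 4.09e-05), 0.90 and 0.72 below and above the gap. Dbp and Per3 had an r of 0.95 (rho 0.93, the same adjusted permutation p), 0.93 and 0.71 below and above. Per3 and Tef had the highest r of the 45, 0.99, with 0.95 and 0.96 below and above. Dbp and Nr1d1 had an r of 0.79 (rho 0.75, adjusted permutation p = 4.74e-05 and 0.000257). Uncentred, r was 0.89 above the gap and 0.00 below it, where no relation was seen. Per1 and Per2 had an r of 0.59 (rho 0.61, adjusted permutation p = 0.00247 and 0.00305), 0.48 below the gap and -0.37 above.

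Leaving out the 2 livers farthest from the median of the first-named gene turned no named pair round. Arntl then had r of 0.74 with Clock, -0.89 with Tef, -0.90 with Per3, -0.73 with Nr1d2, -0.68 with Per2, -0.59 with Per1 and -0.54 with Nr1d1. Dbp had 0.96 with Tef, 0.93 with Per3 and 0.79 with Nr1d1, and Per1 had 0.56 with Per2.

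**Figure D4:**
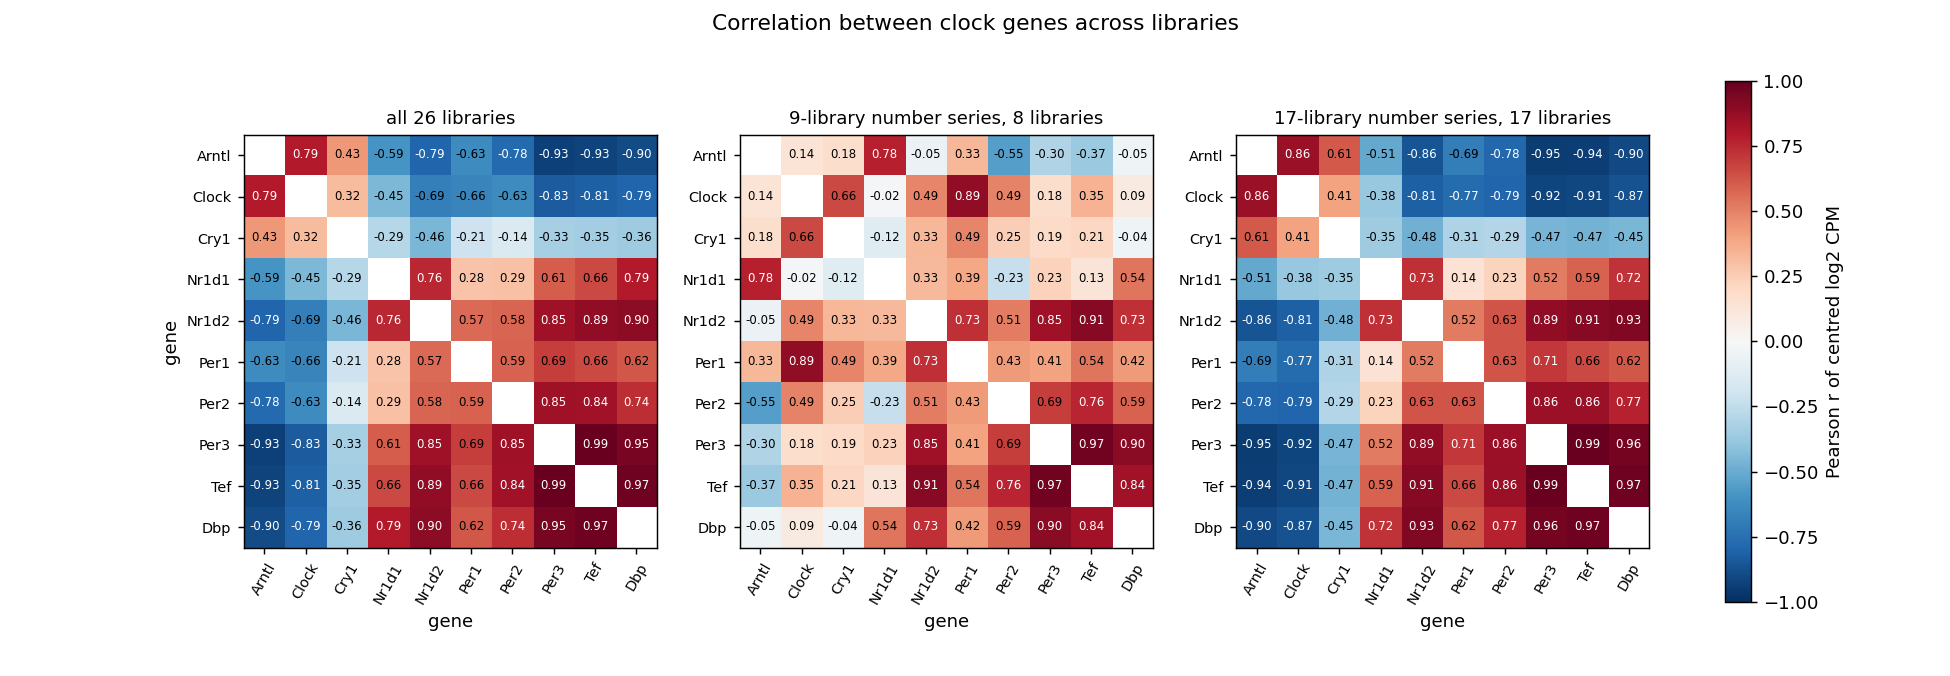
Pearson r between the 10 clock genes over all 26 libraries (left), 8 libraries of the 9-library number series (middle) and the 17-library series (right), with values centred on group means and red for positive, blue for negative. Arntl and Clock are blue against Dbp, Tef and Per3 over all libraries and in the 17-library series, and the Per3, Tef and Dbp block is red in all 3 panels.

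The relations of Arntl differed between the number series in strength, and for some pairs in sign. Within the 17-library series r was -0.90 for Arntl and Dbp, -0.95 for Arntl and Per3 and 0.86 for Arntl and Clock. Within the 9-library series, over 8 livers since its lone chow liver has no group mean, the same pairs had r of -0.05, -0.30 and 0.14, and Arntl and Nr1d1 had 0.78 where the 17-library series had -0.51. Arntl with Tef, Per2, Nr1d2, Per1 and Cry1 had -0.37, -0.55, -0.05, 0.33 and 0.18 in the 9-library series, against -0.94, -0.78, -0.86, -0.69 and 0.61 in the 17-library series. Dbp with Nr1d1 had 0.54 and 0.72 and Per1 with Per2 0.43 and 0.63 in the same order of series. Dbp with Tef and with Per3 held in both, at 0.84 and 0.90 in the 9-library series and 0.97 and 0.96 in the 17-library series. Of the 37 pairs called, 28 had the same sign in both series. In the 9-library series Arntl covered 2.45 to 6.12 CPM, and whether this range bears on its r was not tested.

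Set against the 17-library series, with group held fixed, the 9-library series had 0 of 10 members called and 0 of 17104 genes (0%) by edgeR, and DESeq2 called 11 genes with no member among them. Arntl, Cry1 and Nr1d2 had an unadjusted p under 0.05 (0.0303, 0.0466 and 0.0296, edgeR). Mean Arntl was 4.07 CPM in the 9-library series and 8.81 CPM in the 17-library series, a log2 difference of -0.85 (SE 0.37, adjusted p = 0.782, edgeR). Mean Dbp was 160 and 103 CPM in the same order, a log2 difference of 0.85 (SE 0.50, adjusted p = 0.925, edgeR), which was 0.31 without WT chow replicate 1.

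The diet differences of Arntl and Dbp were larger in size in the 17-library series than in the 9-library series, which has 1 chow liver. In the 9-library series they took the other sign, at 0.11 for Arntl and -0.46 for Dbp. Per3 (-0.25), Nr1d2 (-0.09) and Tef (-0.46) took the other sign there too, while Clock, Per1, Per2 and Cry1 kept theirs. No test of the difference between the series passed the threshold. Diet differences of Cry1 and Nr1d1 were larger in size in the 9-library series, where Nr1d1 was at -0.76, beside 0.59 among the 17 libraries, neither called. In the 17-library series Arntl had 2.77, 3.12 and 4.61 CPM in WT CDAHFD livers and 12.8 to 17.9 CPM in 4 WT chow livers, a log2 difference of -2.12 (SE 0.58, adjusted p = 0.0184, edgeR). Dbp averaged 176 ± 56.4 CPM in those WT CDAHFD livers (SD, n = 3) and 18.3 ± 19.2 CPM in those WT chow livers (n = 4), a log2 difference of 3.27 (SE 0.90, adjusted p = 0.0193, edgeR). In the 9-library series Arntl had 3.90, 4.75 and 6.12 CPM in WT CDAHFD livers and 4.56 CPM in the chow liver, and Dbp had 158, 105 and 90.0 CPM in the same CDAHFD livers and 163 CPM in the chow liver. The difference between the series in the diet effect had an unadjusted p of 0.0504 for Arntl, 0.019 for Dbp and 0.0148 for Nr1d1, and an adjusted p of 0.975 for each (edgeR, 0% of genes called). Cry1 had log2 differences of -0.91 among the 9 libraries and -0.56 among the 17, neither called (adjusted p = 0.256 and 0.202, edgeR). Clock had -0.35 (adjusted p = 0.599) and -0.86 (adjusted p = 0.00578, edgeR).

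The knockout differences of Arntl took opposite signs in the series. Hom KO minus WT CDAHFD was -0.85 (SE 0.70) among the 9 libraries and 1.03 (SE 0.54) among the 17, and Het KO minus WT CDAHFD was -0.32 (SE 0.60) and 1.35 (SE 0.57), with no value called. The differences between the series had unadjusted p of 0.045 and 0.0557 and adjusted p of 0.934 and 0.518 (edgeR). Cry1 was above WT CDAHFD in both series, by 0.85 in Hom KO and 0.88 in Het KO livers of the 9-library series and by 0.17 and 0.26 in those of the 17-library series, and none was called.

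**Figure D5:**
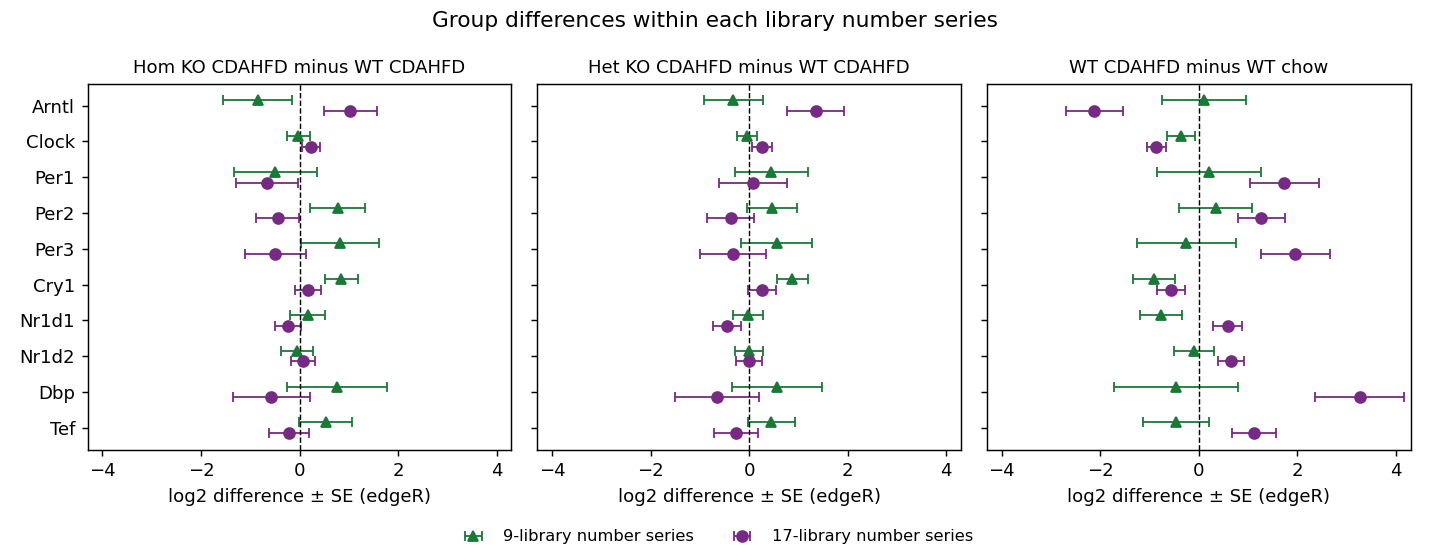
Log2 differences with standard errors (edgeR) of the 10 clock genes within the 9-library number series (triangles) and the 17-library series (circles), for Hom KO CDAHFD minus WT CDAHFD, Het KO CDAHFD minus WT CDAHFD and WT CDAHFD minus WT chow. In the diet panel Arntl is at -2.12 and Dbp at 3.27 in the 17-library series and both lie near 0, within their errors, in the 9-library series, which has 1 chow liver.

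Other genes of the clock network were read from lists written with the members. In WT CDAHFD against WT chow livers, 1 of 13 further network genes was called higher and 1 lower, beside 14.8% and 12.2% of all genes tested. Bhlhe41, the gene of an E-box repressor, averaged 5.56 CPM in WT CDAHFD and 1.84 CPM in WT chow livers, a log2 difference of 1.58 (SE 0.58, adjusted p = 0.0435, edgeR). Nfil3, whose protein represses through D-boxes and so acts against DBP, averaged 12.96 and 23.83 CPM in the same order, and fell by 0.88 (SE 0.30, adjusted p = 0.0304, edgeR). Npas2, a paralog of Clock, had a log2 difference of -1.63 (SE 0.64, adjusted p = 0.062, edgeR), close in size to that of Arntl. The list's median was 0.13, beside -0.01 over all genes tested.

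Of 14 genes known as clock outputs in liver, 3 were called higher on CDAHFD and none lower, beside 14.8% and 12.2% of all genes tested, so the count was near the background. Of the 14, 12 lay above 0, with a list median of 0.64 beside -0.01 over all genes tested. Nampt, the rate-limiting enzyme of NAD salvage, averaged 73.8 CPM in WT CDAHFD and 44.6 CPM in WT chow livers (log2 difference 0.73, SE 0.19, adjusted p = 0.00475, edgeR). Wee1, a kinase that holds cells back from mitosis, averaged 6.08 and 2.25 CPM in the same order (1.42, SE 0.44, adjusted p = 0.0166, edgeR). Gys2, the liver glycogen synthase, averaged 198 and 99.4 CPM (1.00, SE 0.32, adjusted p = 0.0219, edgeR).

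Of 11 genes that answer to temperature, feeding or glucocorticoids, which also set the clock, 2 were called higher and 1 lower, also near the background. Igfbp1, a secreted binding protein held down by insulin, had a log2 difference of 1.69 (SE 0.59, adjusted p = 0.036, edgeR), and Hspa1b, a heat shock protein, 1.18 (SE 0.33, adjusted p = 0.00821, edgeR). Cirbp, a cold-inducible RNA-binding protein, fell by 0.46 (SE 0.14, adjusted p = 0.0137, edgeR). The list's median was 0.21, beside -0.01 over all genes tested.

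In the knockout comparisons 0 genes of the 3 lists were called. All 14 output genes lay below 0 in Hom KO against Het KO livers, with a median of -0.29 beside -0.00 over all genes tested, and the lowest adjusted p among them was 0.72 (edgeR). In Hom KO against WT CDAHFD livers 10 of the 14 lay below 0, and in Het KO against WT CDAHFD livers 3 did.

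Among 13938 genes of at least 1 CPM, those whose levels followed Arntl most closely over the 26 centred livers were Npas2 (r 0.92), Loxl4 (0.87), Lgalsl (0.87), Lrfn3 (0.86) and Leo1 (0.86). Clock ranked 20. At the other end stood Per3, Tef, Dbp, Usp2 (-0.89), a deubiquitinase of the output list, and Bhlhe41 (-0.89). So 3 of the 5 genes most opposed to Arntl were members. Nr1d1 was followed most closely by Rnf186 (0.85), Dbp (0.79), Mthfsl (0.79), Dido1 (0.78) and Gm34934 (0.78), with Nr1d2 at rank 7, and its lowest r were those of Lins1 (-0.78), Aoc2 (-0.76), Ppp1r10 (-0.76), Gpaa1 (-0.76) and Ppard (-0.75). These values share libraries and depth and are a description.

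Arntl and Dbp were also set against 7 cell type marker sums and total counts over the 26 centred livers, 16 relations chosen after the values were seen. None had an adjusted permutation p under 0.05, and the lowest was 0.326. The strongest was Arntl with the bile duct markers, at an r of 0.45 (rho 0.47), and 0.43 without the 2 livers farthest in Arntl. It was 0.02 over 8 livers numbered in the series of 9 and 0.38 over those in the series of 17. Arntl had an r of 0.10 with the macrophage sum, -0.20 with the hepatocyte sum and 0.08 with total counts.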

How the data were processed

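Per the labels' protocols, total RNA was extracted from liver with a column kit and made into libraries with the NEBNext Ultra II RNA kit. The authors deposited estimated counts per gene, which need not be whole, for 55642 Ensembl IDs in 26 libraries; 54.4% of values above 0 were whole within 1e-06. Their tools, per the submitters' processing notes, were cutadapt 3.5 and Salmon 1.4.0, and their build GRCm39. The sources used here give neither the use of strand, nor how transcript values became gene values, nor collection times.

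Estimated counts were rounded and fitted in 1 model of 4 groups with edgeR 4.0.16 in R 4.3.3 (TMM, filterByExpr by group, robust quasi-likelihood F test, Benjamini-Hochberg over 17104 genes, calls at an adjusted p under 0.05). Standard errors are the log2 difference over the square root of F. Log2 CPM used a prior count of 2. Correlations were computed on group-centred values with 100000 within-group permutations, except those below and above the Arntl gap, which used uncentred log2 CPM and no test. The group comparisons of the main edgeR fit, and the correlations with fewer resamples, were also run on simulated data. For diet, 27 of 67 simulated 1.5-fold changes (40.3%) and 53 of 67 2-fold changes (79.1%) were called, among 16905 genes. The changed genes were drawn among those of mean CPM at least 1, and were far fewer than the genes called for diet in the data. Most members varied more than most genes, so these shares do not carry over to the members. The fits with the number series and the alternatives were not simulated. Alternatives were RLE factors, library totals, other filters, the number series as a term or alone, the replicate block, the groups compared alone, limma voom 3.58.1, DESeq2 1.42.0 and leaving out each library. Symbols came from GENCODE (92.5% of IDs) and promoters from RefSeq, both on GRCm38, another build than the counts. Named genes are the members, Mtarc1, up to 4 called genes per list, and the 5 genes at each end of likeness to Arntl and Nr1d1. Genes on the strand opposite a member were named after their overlap was seen. The labels do not say that samples are separate animals, so p-values measure the spread between samples. The members and lists were chosen with earlier results of these data known.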

Additional observations from a re-analysis of the deposited data

Results flagged for a closer look

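In 2 of 40 combinations of gene and group, 1 library stood apart by Dixon's test, about as many as the 1 in 20 that chance gives. Arntl in WT chow replicate 1 was 4.56 CPM, while the other 4 WT chow livers had 12.8 to 17.9 CPM. This is the only chow liver of the 9-library number series, and its Dbp (163 CPM), Tef (194 CPM) and Per3 (36.3 CPM) were the highest of the chow livers. Nr1d1 in Hom KO CDAHFD replicate 5 was 82.1 CPM, while the other 7 Hom KO livers had 115 to 150 CPM. That liver had 11.7 CPM of Arntl and the lowest Dbp of its group, 22.3 CPM.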

How the results depend on the processing

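Of 50 member differences (5 comparisons), 24 lay at least 1 standard error from 0, and none of these 24 changed sign under any alternative run. The other 26 lay within 1 standard error of 0, 20 of them changed sign somewhere, and none was called. The differences within the 9-library series were not among these alternatives. There the diet differences of Arntl, Dbp, Per3, Nr1d2 and Tef took the other sign. The differences of Arntl between each knockout and WT CDAHFD did so there too. The count of members called for diet, 3, was 5 with library totals and 2 to 6 when 1 library was left out. All genes called for diet were 4630 in the main fit, 6072 with library totals and 3769 to 4735 when 1 library was left out. Arntl lost its call with no filter on low counts (-1.60, adjusted p = 0.0604) and with the library series as a term (-1.19, adjusted p = 0.0935), Cry1 lost its call within the 17-library series alone (-0.55, adjusted p = 0.229), where 2264 genes were called, and Dbp was called there (3.28, adjusted p = 0.0466) and with limma voom (2.70, adjusted p = 0.0253). Per2 was called with the compared groups alone (0.95, adjusted p = 0.0488) and without WT CDAHFD replicate 3 (1.12, adjusted p = 0.0398). The cause was not tested. The knockout and series counts of members stayed at 0 throughout. The 37 pairs called were 34 to 40 under other scalings and subsets and 35 to 41 with 1 library left out, where Arntl with Cry1 had r of 0.35 to 0.54 and missed the threshold in 2 of 26.

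Replicate numbers are shared between groups, and no source used here says whether they pair the samples. Over 34 same-numbered pairs the correlation of deviations from group means ran from -0.49 to 0.41, with a median of 0.099 and 17 over 0.1. These were not set against differently numbered pairs, so they cannot decide on pairing. With a replicate block 6 members were called for diet, Per2 (1.13), Nr1d2 (0.64) and Dbp (2.74) besides the 3, and the block called 2 genes in Hom KO against WT CDAHFD. Over all genes the block called fewer for diet than the 4630 of the main fit. Since it is not known whether replicate numbers pair the samples, no conclusion is drawn from the counts with the block.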

Other observations

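Some livers with neighbouring library numbers had similar levels of Arntl. Libraries 11070, 11071 and 11072 were Hom KO replicate 5, Het KO replicate 6 and Hom KO replicate 6, and had 11.7, 13.4 and 12.4 CPM of Arntl. Libraries 11066, 11067 and 11068 were WT CDAHFD replicate 4, Hom KO replicate 4 and WT CDAHFD replicate 5, and had 2.77, 3.69 and 3.12 CPM. Libraries 11142 and 11143 were Het KO replicate 7 and Hom KO replicate 8, with 2.11 and 2.65 CPM. Libraries 11001 and 11002 broke this pattern, with 4.79 CPM in Hom KO replicate 3 and 16.9 CPM in Het KO replicate 4. The number order is a label, no source used here says what it stands for, and its relation to Arntl was not tested.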
